A study of Mus musculus with 9 samples.

Results

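Interferon-stimulated genes are genes that cells switch on when type I or type III interferon binds its receptor. The 39 described here were chosen by symbol from a list of well-known members, with earlier results of these data known. Their shares of changed genes are therefore descriptions set beside those of all tested genes. All 39 had a row among the 31405 linear gene entries of each library. The cells were mouse bone marrow mesenchymal stem cells, marrow stromal cells able to become bone-forming cells, bought as a commercial stock at passage 1. They were kept for 7 days in proliferation medium (PM), in osteogenic medium (OM), or in OM with dicalcium silicate (C2S), a calcium silicate ceramic. OM carried 100 nM dexamethasone, a synthetic glucocorticoid, with 0.2 mM ascorbic acid and 10 mM beta-glycerophosphate, so the C2S group shared all 3 additives with OM. The labels list several silicate doses without tying any to the sequenced cultures, and they give no strain, sex or age. Each group had 3 libraries of total RNA, and group values are given as mean ± SD over those 3 libraries (n = 3). Nothing in the labels says whether a group stands for several cultures or a repeated one. The p-values therefore measure the spread between these samples alone, and that spread may be technical.

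Type I interferon signals through the receptor chains Ifnar1 and Ifnar2 and the kinases Jak1 and Tyk2, which activate Stat2. With Irf9, Stat2 is part of a transcription factor complex that binds the interferon-stimulated response element (ISRE) in the promoters of its target genes. The proteins made from those genes sense foreign nucleic acid, degrade or hide RNA, block translation, trap virus particles at membranes, and tune the pathway itself. Cells without infection also keep many of these genes at a basal level, set by low interferon signalling and by other interferon regulatory factors. Glucocorticoids act through a receptor that binds a different DNA element and are widely used to dampen inflammatory gene expression.

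The promoter sequences of 28 of the 39 genes were available from RefSeq (assembly GRCm38.p6), as windows from 250 bases before to 50 after the gene start. The ISRE core was searched as GAAA, any 2 bases and GAAA again, on both strands, with overlapping matches counted. It was present in the windows of 15 of the 28 genes (53.6%), against 3.99% of the 27025 genes with such windows. The stretches below belong to members whose expression differed between the media and, last, to Bst2, whose expression did not pass the test in any comparison. They are written 5′ to 3′ on the strand of the gene, and capitals mark the matches to the ISRE core, read on either strand.
Isg15: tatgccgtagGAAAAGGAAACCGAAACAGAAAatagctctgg
Ifit1: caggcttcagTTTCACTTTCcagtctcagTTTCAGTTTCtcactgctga
Ifit3: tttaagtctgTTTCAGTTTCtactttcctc
Rsad2: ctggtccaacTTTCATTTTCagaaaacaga
Trim30a: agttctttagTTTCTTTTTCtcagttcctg
Gbp3: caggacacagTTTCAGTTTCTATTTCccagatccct
Bst2: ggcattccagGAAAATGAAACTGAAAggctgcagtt

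The Isg15 stretch lies at chr4:156200865-156200906 on the minus strand and holds 3 overlapping matches, the farthest of which begins 78 bases before the gene start. The Ifit1 stretch, at chr19:34640775-34640823 on the plus strand, holds 2 separate matches beginning up to 104 bases before the start. The Ifit3 stretch is at chr19:34583397-34583426 on the plus strand, and the Rsad2 stretch at chr12:26456553-26456582 on the minus strand. The Trim30a stretch is at chr7:104465210-104465239 on the minus strand, 36 bases before the start. Ifit3 and Trim30a each have a further match outside the stretch shown. The Gbp3 stretch, at chr3:142559989-142560024 on the plus strand, and the Bst2 stretch, at chr8:71537577-71537612 on the minus strand, each hold 2 overlapping matches.

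Other elements were less frequent in the same windows. The gamma-activated sequence (GAS), an element of interferon gamma responses, was searched as TTCNNNGAA and matched in 7 of 28 genes (25%), against 9.55% of all genes. Irf1 had a match 90 bases and Ifit2 a match 241 bases before the start. The glucocorticoid response element, searched as GNACA, any 3 bases and TGTNC, matched in 0 of 28 genes, against 0.537% of all genes. At so low a share, 28 genes are too few to show whether the element is rarer among them. A match is a description of the letters and not evidence of binding, and windows without a match say nothing of sites elsewhere.

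**Figure D1:**
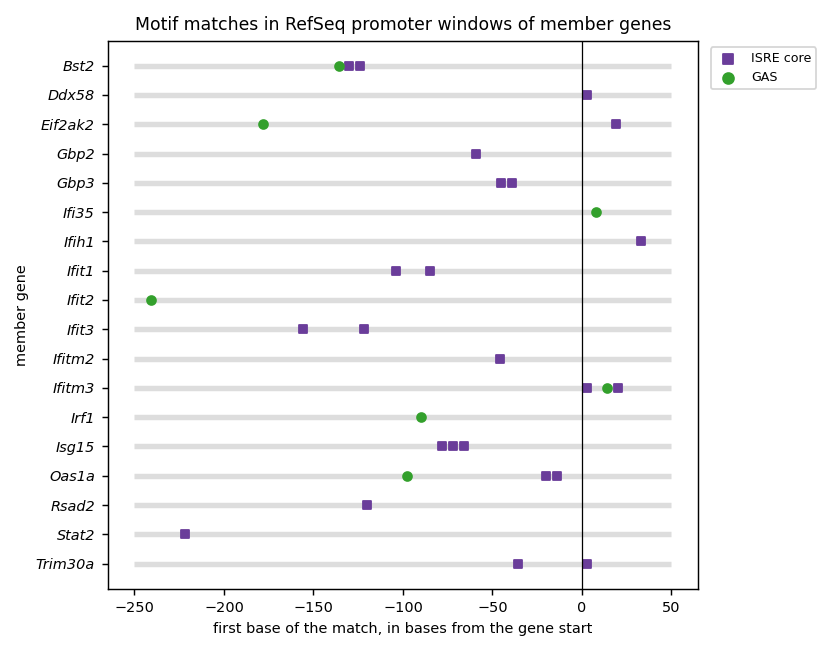
Positions of ISRE core and GAS matches in the promoter windows of the interferon-stimulated genes that hold any, in bases from the gene start on the x axis, with 1 gene per row. ISRE core matches occur in 15 of the 28 genes with a window, and the 3 matches of Isg15 lie within 78 bases before its start.

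The genes lie on 14 chromosomes, and several lie close together. Distances are between members, and other genes in between were not looked for. Ifit2, Ifit3 and Ifit1 lie in this order on the plus strand of chromosome 19. There are 7111 bases between Ifit2 and Ifit3 and 52139 between Ifit3 and Ifit1. Rsad2 and Cmpk2 are neighbours on chromosome 12, 12751 bases apart on opposite strands. Dtx3l and Parp9 overlap on opposite strands of chromosome 16, and how the counting treated strand is not stated by the labels, so reads of the shared bases cannot be told apart. Some members also have near-identical copies between which the counting could split reads, so their values are uncertain. Ifit3 shares 97.8% identity with Ifit3b over 97.4% of its transcript, Oas1a 97.6% with Oas1g over 98.7%, and Isg15 95.2% with the gene AC151275.1 over 63.8%. The Ifitm genes have similar pseudogenes, Mx1 and Mx2 resemble each other, and Trim30a resembles Trim30d. For Ifitm2, 40.9% of the exonic bases also overlap Gm45717 on the same strand. For Ifi35, 16.8% overlap Gm11626 on the other strand, so its reads carry the same doubt as those of Dtx3l and Parp9.

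Levels are FPKM (fragments scaled to transcript length and to the size of the library), and the values rested on 29577048 to 38759690 reads per library. The 7SK RNA gene Rn7sk made up 28.8% to 36.1% of the summed FPKM of each library. Because FPKM is scaled to transcript length, that is not its share of the reads. The libraries of a group did not rank evenly on these genes. PM replicate 1 was the highest PM library for 32 of the 39 genes, against 35.7% of all 13049 tested genes, and PM replicate 3 the lowest for 31 of 39 (79.5%), against 46.7% of all. C2S replicate 1 was the highest C2S library for 35 of 39 genes (89.7%, against 34.9%), and C2S replicate 2 the lowest for 36 (92.3%, against 35.6%). OM replicate 1 was the highest OM library for 23 genes (59.0%, against 27.3%). The median coefficient of variation among the 39 genes was 16.7% in PM, 8.80% in OM and 10.4% in C2S, where the medians over all tested genes were 7.31%, 7.01% and 4.82%. Because genes of this kind moved together between libraries of a group, they are not independent of each other.

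**Figure D2:**
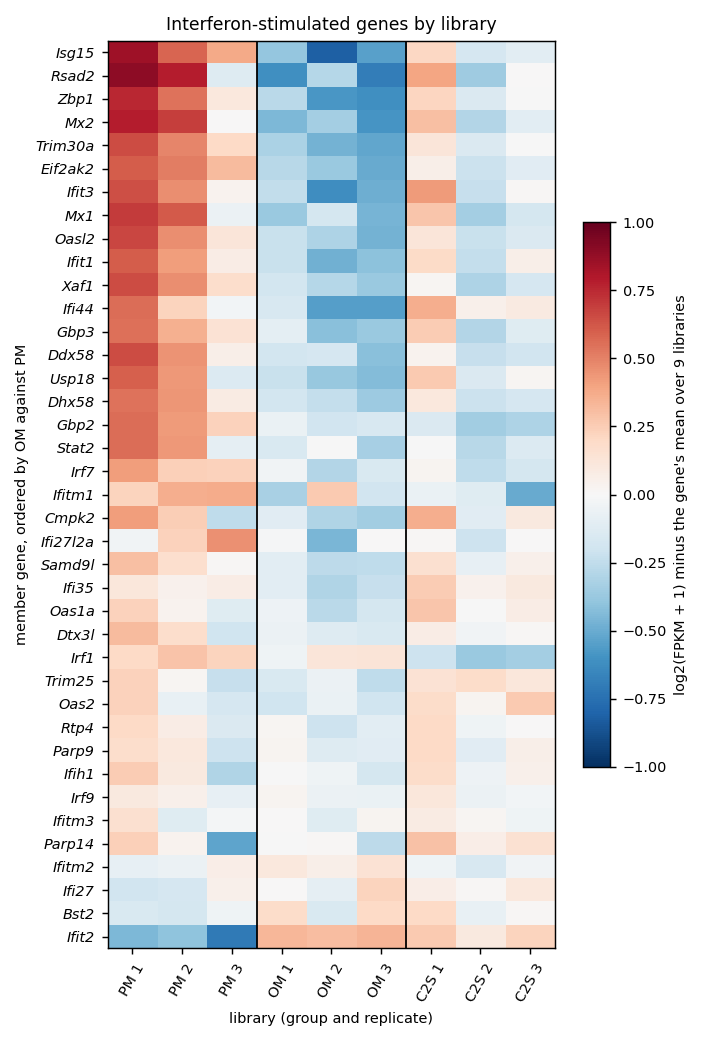
Level of each of the 39 interferon-stimulated genes (rows, ordered by the fold change in OM against PM) in each of the 9 libraries (columns), as the log2(FPKM + 1) difference from the mean of that gene. In OM against PM 22 rows fell, PM replicate 3 is the lowest PM library for 31 genes, and Ifit2 rose in OM.

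All 39 genes were detected and passed the filter of at least 1 FPKM in at least 3 libraries. The mean over the 9 libraries was at least 100 FPKM for 7 genes. Ifitm3, a membrane protein that blocks virus entry, led with 879 FPKM, followed by Ifi27l2a with 750 and Bst2, the tetherin that holds budding virions, with 324. Ifitm2 (249), Ifi27 (245), Ifit3 (187) and Ifit1 (145) completed the group. A further 24 genes lay between 10 and 100 FPKM, 5 between 2 and 10, and 3 below 2. The last were Mx1 with 1.14, Ifitm1 with 1.13 and Oas2 with 0.858 FPKM.

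Comparing OM with PM asks how the osteogenic medium changed these genes. Of the 39, 22 fell in OM, 1 rose and 16 did not pass the test. Among all tested genes 27.7% fell, 27.1% rose and 54.8% changed in either direction, so the members' share of falls (56.4%) stood above that background and their share of rises (2.56%) below it. The median log2 fold change of the 39 was -0.40, against 0.0028 over all tested genes. For 21 of the 39 genes every OM library was below every PM library, and for 1 every OM library was above, where all tested genes gave 29.2% and 29.3%. The test throughout was limma on log2(FPKM + 1), fitted across all tested genes with Benjamini-Hochberg adjustment at 0.05. Fold changes are on that scale, with their standard errors, and understate the change of low genes. In bulk samples, fewer cells of a type and less RNA per cell cannot be told apart.

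In the ISG15 system 3 of 4 genes fell. Isg15, a ubiquitin-like protein that is attached to other proteins (ENSMUSG00000035692, mm10 chromosome 4, 156199424 to 156200818), measured 52.6, 43.5 and 37.9 FPKM in PM replicates 1 to 3, 21.9, 15.9 and 19.5 in OM, and 33.4, 25.6 and 26.7 in C2S. The 3 groups did not overlap, with PM highest, C2S between and OM lowest. Its log2 fold change in OM against PM was -1.18 ± 0.15 (limma, adjusted p = 1.5e-04). Trim30a, a ubiquitin ligase that restrains Toll-like receptor signalling in mice, measured 43.4, 38.6 and 31.4 FPKM in PM, 21.6, 19.4 and 18.7 in OM, and 29.8, 24.6 and 27.1 in C2S. Its groups were ordered like those of Isg15 and also did not overlap, and it fell in OM by 0.88 ± 0.11 on the log2 scale (adjusted p = 1.7e-04). Usp18, which removes ISG15 from proteins and damps the type I receptor, fell from 74.2 ± 18.7 to 46.2 ± 3.63 FPKM (log2 fold change -0.64, adjusted p = 0.0126). Trim25, a ligase that activates RIG-I, did not pass (-0.16, adjusted p = 0.214).

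Within the IFIT family, whose proteins bind foreign RNA, neighbouring genes moved in opposite directions. Ifit3 measured 280, 248 and 183 FPKM in PM, 151, 116 and 128 in OM, and 242, 152 and 181 in C2S. Every OM library was below every PM and every C2S library, and Ifit3 fell in OM by 0.83 ± 0.19 (adjusted p = 0.00547). Ifit1 measured 214, 188 and 148 FPKM in PM, 120, 100 and 106 in OM, and 161, 119 and 146 in C2S. It fell in OM by 0.74 ± 0.15 (adjusted p = 0.00234), again with no overlap between OM and PM. Ifit2, the member nearest to Ifit3, measured 41.2, 42.6 and 34.3 FPKM in PM, 71.5, 70.4 and 71.7 in OM, and 68.0, 60.6 and 66.1 in C2S. It was the only one of the 39 to rise in OM, by 0.85 ± 0.078 (adjusted p = 2.0e-05), and the coefficient of variation of its OM libraries was 1.03%. Ifit2 spans 34550694 to 34576419 and Ifit3 34583531 to 34588731 on mm10 chromosome 19. The promoter windows of Ifit1 and Ifit3 hold ISRE core matches, shown above. That of Ifit2 holds no ISRE core match, only the GAS match given above. Of the 13 members with a window but no ISRE core match 7 fell in OM, and a link to direction was not tested.

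**Figure D3:**
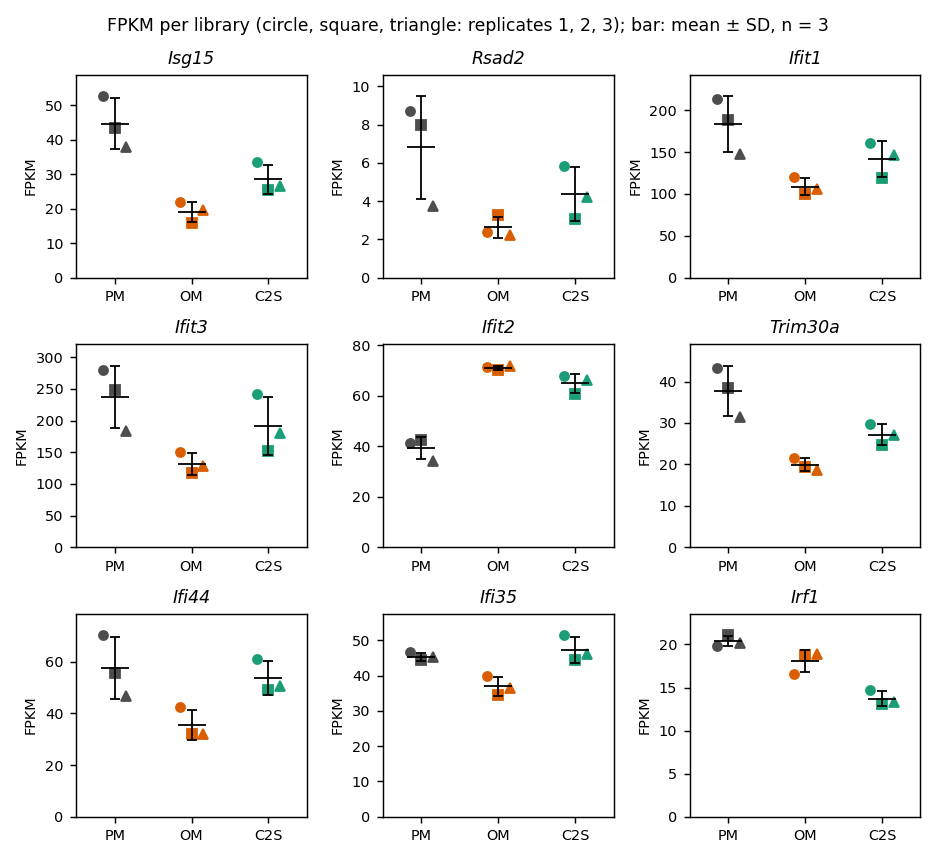
FPKM of 9 interferon-stimulated genes in every library, with a circle, square and triangle for replicates 1, 2 and 3, horizontal lines for group means and bars for SD (n = 3). Isg15, Trim30a and Ifi44 are lowest in OM, Ifit2 is higher in OM and C2S than in PM, and Irf1 is lowest in C2S.

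Of the nucleic acid sensors, 3 of 4 fell in OM. Zbp1, a sensor of Z-form nucleic acid that can trigger cell death, measured 14.5, 12.3 and 8.88 FPKM in PM, 6.62, 5.13 and 5.00 in OM, and 9.66, 7.30 and 8.16 in C2S. It fell by 0.95 ± 0.17 (adjusted p = 0.00111) and the OM and PM libraries did not overlap. Ddx58, the RNA sensor RIG-I, fell from 60.9 ± 12.5 to 38.1 ± 3.71 FPKM, and its relative Dhx58 (LGP2) from 23.2 ± 3.85 to 14.6 ± 0.959. Ifih1, the sensor MDA5, measured 15.9 ± 3.17 in PM and 14.7 ± 0.948 in OM and did not pass (adjusted p = 0.574).

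All 4 GTPases fell. Mx2, a dynamin-like GTPase that restricts viruses, measured 21.7, 20.3 and 12.3 FPKM in PM, 8.70, 9.44 and 7.79 in OM, and 15.3, 9.81 and 11.3 in C2S, and it fell by 0.95 ± 0.21 in OM (adjusted p = 0.00406). Mx1, its relative, was near the filter, with 1.81 ± 0.737 in PM and 0.628 ± 0.170 in OM (-0.76 ± 0.22, adjusted p = 0.0162). Mx1 reached 1 FPKM only in PM replicates 1 and 2 and C2S replicate 1, so the filter kept it without any OM library. With a pseudocount of 0.1 its log2 fold change was -1.33. The guanylate-binding proteins Gbp2 and Gbp3, which attack membranes around pathogens, fell by 0.54 and 0.65.

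Of the enzymes that act on RNA or translation, Eif2ak2 and Oasl2 fell while Oas1a and Oas2 did not pass. Eif2ak2, the kinase PKR, which halts translation on viral RNA, measured 76.3, 71.4 and 62.4 FPKM in PM, 41.0, 38.4 and 34.9 in OM, and 52.0, 42.8 and 46.0 in C2S. All OM libraries were below all PM libraries, and it fell by 0.86 ± 0.095 (adjusted p = 6.3e-05). Oasl2, related to the oligoadenylate synthetases that activate RNase L, fell from 47.9 ± 9.04 to 27.7 ± 2.44 FPKM (-0.75 ± 0.14, adjusted p = 0.00154). Oas1a, a synthetase itself, measured 30.6 ± 3.89 and 26.1 ± 2.08 (adjusted p = 0.102).

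Rsad2 (viperin), which makes a nucleotide that ends viral RNA chains, measured 8.69, 7.99 and 3.75 FPKM in PM, 2.41, 3.27 and 2.22 in OM, and 5.85, 3.07 and 4.21 in C2S. PM replicate 3 lay closer to the OM libraries than to the other PM libraries, and Rsad2 fell by 1.05 ± 0.28 in OM (adjusted p = 0.0106). Its neighbour Cmpk2, a mitochondrial nucleotide kinase, did not pass (-0.39, adjusted p = 0.0859). Samd9l, a growth-restricting factor, fell from 56.1 ± 5.82 to 43.1 ± 2.69 FPKM (-0.37, adjusted p = 0.00585). Among other interferon-induced genes, Ifi44, Ifi35 and the XIAP-associated factor Xaf1 fell, Xaf1 from 26.1 ± 4.37 to 15.4 ± 1.04 FPKM (-0.71 ± 0.12, adjusted p = 9.97e-04).

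Of the transcription factors, 3 of 4 fell. Irf7, which amplifies type I interferon production, fell from 98.2 ± 7.38 to 71.4 ± 6.48 FPKM (-0.46 ± 0.091, adjusted p = 0.00231). Stat2 fell from 32.0 ± 7.28 to 22.7 ± 2.66 (-0.46 ± 0.16, adjusted p = 0.0337), with overlapping libraries. Irf1 fell from 20.4 ± 0.609 to 18.0 ± 1.28 (-0.17 ± 0.062, adjusted p = 0.0450). Irf9, the DNA-binding partner of Stat2, measured 36.2 to 41.0 FPKM in PM and 36.7 to 39.2 in OM and did not pass (adjusted p = 0.516).

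The membrane restriction factors and the PARP9-DTX3L group contributed no call. Ifitm3 measured 885 ± 88.7 in PM and 861 ± 45.9 FPKM in OM, and Bst2 284 to 312 and 290 to 370. Ifitm2 and Ifitm1 did not pass either (adjusted p = 0.0797 and 0.0652). Parp9, Dtx3l and Parp14, which modify proteins with ADP-ribose or ubiquitin, had log2 fold changes from -0.21 to 0.0013. The 5 genes with the highest levels, Ifitm3, Ifi27l2a, Bst2, Ifitm2 and Ifi27, were all among those that did not pass.

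The fall in 19 of the 22 genes, and the rise of Ifit2, passed under every alternative tried. The others were Irf1, Mx1 and Stat2. Irf1 had adjusted p = 0.153 without OM replicate 1, where its log2 fold change was -0.11, 0.0632 without PM replicate 1, 0.131 without PM replicate 2 and 0.0723 without PM replicate 3. It also missed the threshold with no filter (0.0857), upper-quartile scaling (0.0561), no mean trend (0.0566) and only the 2 groups compared (0.0577). Mx1 had 0.0514 without OM replicate 3, 0.0590 without PM replicate 1 and 0.0591 without PM replicate 2. Stat2 had 0.0723 without OM replicate 1, 0.108 without OM replicate 3, 0.113 without PM replicate 1 and 0.105 without PM replicate 2, and 0.0875 with no filter and 0.0605 with only the 2 groups compared. Without PM replicate 3, the PM library lowest for most of these genes, 26 members fell and 2 rose. Trim25 (adjusted p = 0.0143), Cmpk2 (0.00657), Ifih1 (0.0361), Dtx3l (0.00128) and Oas1a (0.0314) then joined those that fell, and Ifitm2 (0.0231) rose. Without OM replicate 2, Ifitm1 also fell (0.00901) and Bst2 rose (0.0122), and without PM replicate 1 Ifi27l2a fell (0.0249).

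Of the 15 genes with an ISRE core in the promoter window, 10 fell in OM, with a median log2 fold change of -0.65. Of the 13 with a window but no such match, 7 fell and 1 rose, with a median of -0.37. The difference between these groups of genes was not tested.

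**Figure D4:**
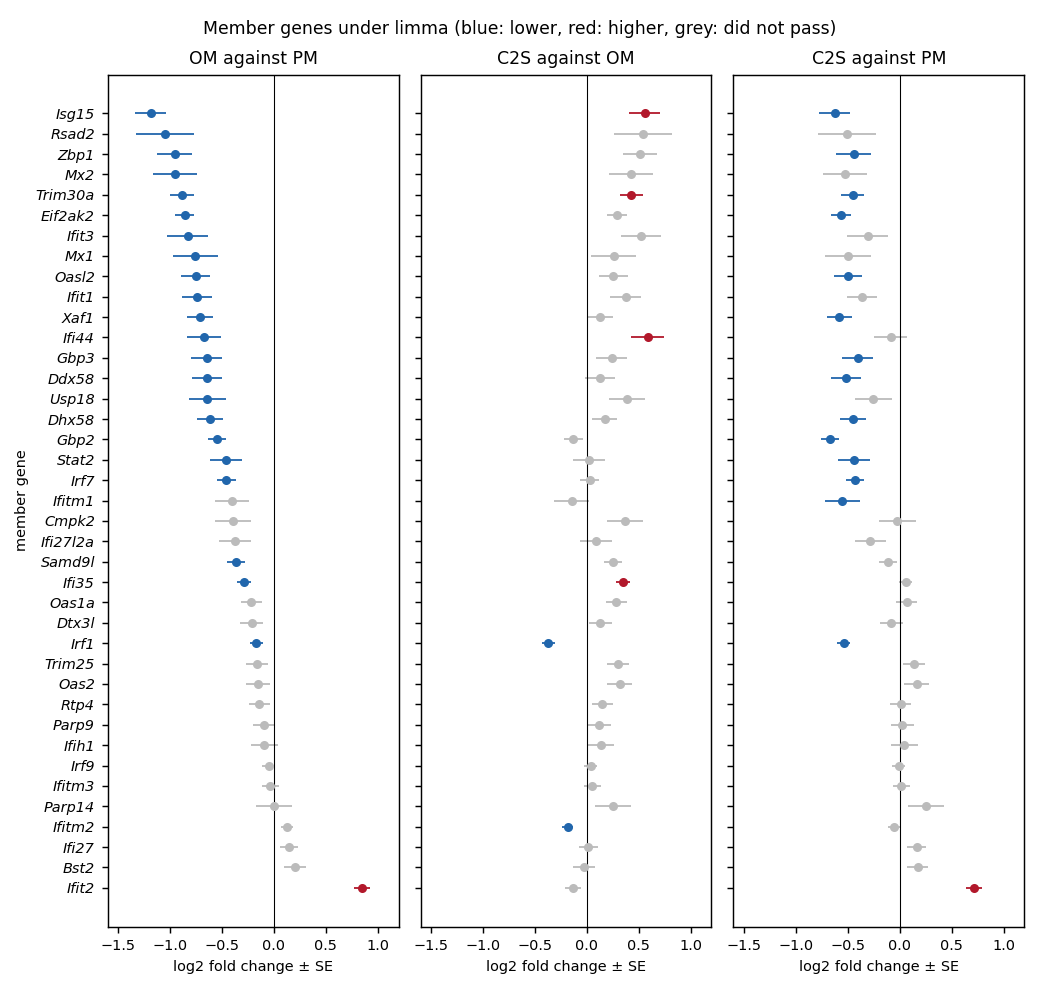
Log2 fold change of log2(FPKM + 1) for each of the 39 genes in OM against PM, C2S against OM and C2S against PM, with bars for the standard error, blue points for falls, red points for rises and grey points for genes that did not pass. The OM against PM panel has 22 falls and 1 rise, the C2S against OM panel 4 rises and 2 falls, and the C2S against PM panel 14 falls and 1 rise.

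Comparing C2S with OM asks how the silicate changed cells already in osteogenic medium. Only 6 of the 39 genes changed. Isg15, Trim30a, Ifi44 and Ifi35 rose and Irf1 and Ifitm2 fell. Among all tested genes 10.6% rose, 11.5% fell and 22.0% changed in either direction, and the members' 10.3% and 5.13% were near or below that background. The median log2 fold change of the 39 was 0.24, against -0.0071 over all tested genes. In 17 of the 39 genes (43.6%) every C2S library was above every OM library, against 19.9% of all tested genes, and in 3 (7.69%) every C2S library was below, against 23.3%. Those 3 were Ifit2, Ifitm2 and Irf1. Among the 17, Oas2 reached 1 FPKM only in PM replicate 1 and C2S replicates 1 and 3. The filter thus kept it without any OM library.

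Isg15 averaged 19.1 ± 3.01 FPKM in OM and rose to 28.6 ± 4.24 with silicate (log2 fold change 0.56 ± 0.15, limma, adjusted p = 0.0282). Trim30a rose from 19.9 ± 1.55 to 27.2 ± 2.59 (0.43 ± 0.11, adjusted p = 0.0277). Ifi44, an interferon-induced protein with antiviral activity, measured 70.2, 55.6 and 46.6 FPKM in PM, 42.4, 32.0 and 32.1 in OM, and 61.3, 49.1 and 50.6 in C2S. Its C2S libraries were all above its OM libraries and overlapped with PM, and it rose in C2S by 0.59 ± 0.16 (adjusted p = 0.0305) where in OM against PM it fell by 0.67 (adjusted p = 0.00612). Ifi35, a leucine zipper protein induced by interferon, measured 46.6, 44.3 and 45.2 FPKM in PM, 39.9, 34.6 and 36.5 in OM, and 51.4, 44.4 and 46.1 in C2S. It fell by 0.29 in OM against PM (adjusted p = 0.00484) and rose by 0.35 ± 0.066 in C2S against OM (adjusted p = 0.00740). All 4 of these genes fell in OM against PM and rose in C2S against OM, and both comparisons share the OM libraries.

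Irf1, a transcription factor that also acts downstream of interferon gamma, went the other way. It measured 19.9, 21.05 and 20.2 FPKM in PM, 16.6, 18.7 and 18.8 in OM, and 14.7, 13.0 and 13.4 in C2S. The C2S libraries were the lowest of all 9, and Irf1 fell by 0.37 ± 0.062 in C2S against OM (adjusted p = 0.00405). Ifitm2 measured 268, 260 and 275 FPKM in OM and 242, 223 and 243 in C2S, and it fell by 0.18 ± 0.056 (adjusted p = 0.0448).

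Ifi35 and Irf1 passed under every alternative tried. Ifi44 had adjusted p = 0.0982 without C2S replicate 1, 0.0558 without C2S replicate 2, 0.0719 without C2S replicate 3, 0.0841 without OM replicate 2 and 0.0876 without OM replicate 3. Isg15 had 0.0896 without C2S replicate 1, 0.0651 without C2S replicate 3, 0.0774 without OM replicate 2 and 0.0587 without OM replicate 3, and Trim30a had 0.0910, 0.0838, 0.0689 and 0.0797 without those same libraries. Ifitm2 missed the threshold without any 1 of the 6 OM and C2S libraries, with adjusted p from 0.0581 to 0.152, and with no filter (0.101), upper-quartile scaling (0.0502) and no mean trend (0.0518). With no filter Ifi44 (0.0905), Isg15 (0.0845) and Trim30a (0.0807) missed it too. Without C2S replicate 1, 2 or 3 the number of all tested genes that changed was 1887, 1731 or 1414, against 2877 with all libraries.

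Several members came close to the threshold in C2S against OM without passing. Eif2ak2 had a log2 fold change of 0.29 (adjusted p = 0.0559), Zbp1 0.51 (0.0574), Trim25 0.30 (0.0673), Samd9l 0.25 (0.0685), Oas1a 0.28 (0.0784) and Ifit3 0.52 (0.0857). With the fit restricted to the OM and C2S libraries, 9 members rose. The 5 added were Trim25 (adjusted p = 0.0138), Zbp1 (0.0267), Usp18 (0.0403), Samd9l (0.0485) and Eif2ak2 (0.0490).

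Comparing C2S with PM sets the silicate culture against the medium without osteogenic additives. Of the 39 genes 14 fell, 1 rose and 24 did not pass. Among all tested genes 28.4% fell, 27.6% rose and 56.0% changed in either direction, and the members' shares were 35.9%, 2.56% and 38.5%. The median log2 fold change was -0.28, against -0.0017 over all tested genes. For 9 of the 39 genes (23.1%) every C2S library was below every PM library, where all tested genes gave 31.9%. This comparison shares its PM libraries with the first and its C2S libraries with the second, so its values are given side by side with theirs.

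Gbp2 fell from 20.1 ± 2.40 FPKM in PM to 12.2 ± 1.02 in C2S (-0.67 ± 0.087, limma, adjusted p = 1.7e-04), and its value in OM was 13.4 ± 0.672. Isg15 fell by 0.62 ± 0.15 (adjusted p = 0.00612), Xaf1 by 0.58 (0.0030), Eif2ak2 by 0.57 (7.98e-04) and Trim30a by 0.45 (0.00799). Of the sensors, Ddx58 fell by 0.52 (0.0130), Dhx58 by 0.45 (0.0131) and Zbp1 by 0.44 (0.0470). Of the transcription factors, Irf1 fell by 0.54 ± 0.062 (8.0e-05), Irf7 by 0.43 (0.00311) and Stat2 by 0.44 (0.0394). Oasl2 fell by 0.50 (0.0134), Gbp3 by 0.41 (0.0451) and the sparsely expressed Ifitm1 by 0.55 (0.0189). Ifitm1 rested on only 13 to 51 reads per library, and its log2 fold change was -0.99 with a pseudocount of 0.1. It reached 1 FPKM in every PM library and in no C2S library, so the filter kept it through the group where it is high. Ifit2 rose by 0.71 ± 0.078 (5.6e-05). Rsad2, Mx2, Mx1, Ifit1, Ifit3, Usp18, Samd9l, Ifi44 and Ifi35, which fell in OM against PM, did not pass here, with log2 fold changes from -0.53 to 0.056.

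The falls of 9 of these 14 genes and the rise of Ifit2 passed under every alternative tried. Oasl2 had adjusted p = 0.0508 without C2S replicate 2. Ifitm1 had 0.0694 without C2S replicate 3 and 0.0549 without PM replicate 2. Gbp3, Stat2 and Zbp1 each missed the threshold without C2S replicate 2 (0.154, 0.122 and 0.145), C2S replicate 3 (0.120, 0.0863 and 0.107), PM replicate 1 (0.144, 0.131 and 0.155) or PM replicate 2 (0.0972, 0.120 and 0.120). They also missed it with no filter (0.110, 0.0991 and 0.114), as did Ifitm1 (0.0535), and with only the 2 groups compared (0.0554, 0.0523 and 0.0565). With no mean trend Gbp3 had 0.0534 and Zbp1 0.0539. Without PM replicate 3, 20 members fell and 2 rose. Mx1 (adjusted p = 0.00777), Rsad2 (0.00890), Mx2 (0.00329), Usp18 (0.00902), Ifit1 (0.0102) and Dtx3l (0.0122) then fell and Ifi27 (0.0397) rose. Without C2S replicate 1, Mx1 (0.0338), Mx2 (0.0264) and Ifit1 (0.0415) fell, and without PM replicate 1 Trim25 rose (0.0353).

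The genes that carry the interferon signal were examined as a list of 51 ligands, receptors, transducers and sensing adaptors that holds none of the 39. Of these 34 were tested, and in OM against PM 7 rose and 9 fell. These shares, 20.6% and 26.5%, were near or below the 27.1% and 27.7% of all tested genes. No interferon ligand passed the filter. Of 11 ligands listed 5 had values, Ifnb1 lay between 0 and 0.253 FPKM, and the highest value of any was 0.356 for Ifne. Ifnar1, a chain of the type I receptor, measured 14.1, 14.6 and 14.3 FPKM in PM, 11.5, 12.2 and 11.1 in OM, and 11.4, 11.7 and 11.5 in C2S. It fell by 0.28 ± 0.043 in OM against PM (limma, adjusted p = 4.9e-04) and did not pass in C2S against OM (adjusted p = 0.911). The partner chain Ifnar2 and the kinases Jak1 and Tyk2 passed in no comparison.

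Irf3, the factor that starts interferon transcription after sensing, did not pass in OM against PM and had a log2 fold change of 0.20 in C2S against PM (adjusted p = 0.0344). That call was lost without C2S replicate 1 (0.0996), C2S replicate 3 (0.106), PM replicate 1 (0.0957) or PM replicate 2 (0.0554), with no filter (0.0712) and with only the 2 groups compared (0.0577). Irf2, which opposes Irf1 at shared sites, rose in OM from 4.50, 3.42 and 3.28 FPKM to 6.52, 6.86 and 6.58 (0.70 ± 0.11, adjusted p = 6.83e-04).

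The largest pathway changes in OM against PM were rises of Tlr4, the endotoxin receptor, by 1.13 ± 0.043 (adjusted p = 6.1e-08) and of Samhd1, a nucleotide hydrolase, by 1.11 ± 0.060 (6.2e-07). Ptpn11 fell by 0.47 and Traf3 by 0.45. In C2S against OM 7 of the 34 rose and 2 fell (20.6% and 5.88%, against 10.6% and 11.5% of all tested genes). Socs1, a feedback inhibitor of the Jak kinases, measured 4.76, 4.61 and 4.79 FPKM in PM, 3.47, 3.38 and 3.44 in OM, and 5.15, 4.81 and 4.86 in C2S. Its OM libraries were below all others, and it rose in C2S against OM by 0.42 ± 0.047 (adjusted p = 6.4e-04). Tlr4 rose by 0.56 ± 0.043, Tmem173, the DNA-sensing adaptor STING, by 0.46 ± 0.065 (0.00182), and the kinase adaptors Azi2 and Tank by 0.28 each. Socs3, a feedback inhibitor of Stat3, fell by 1.26 ± 0.26 (0.00972), from values in OM of 21.6, 29.7 and 49.3 FPKM to values in C2S of 12.2, 12.7 and 13.1. In C2S against PM 9 rose and 8 fell (26.5% and 23.5%, against 27.6% and 28.4%).

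**Figure D5:**
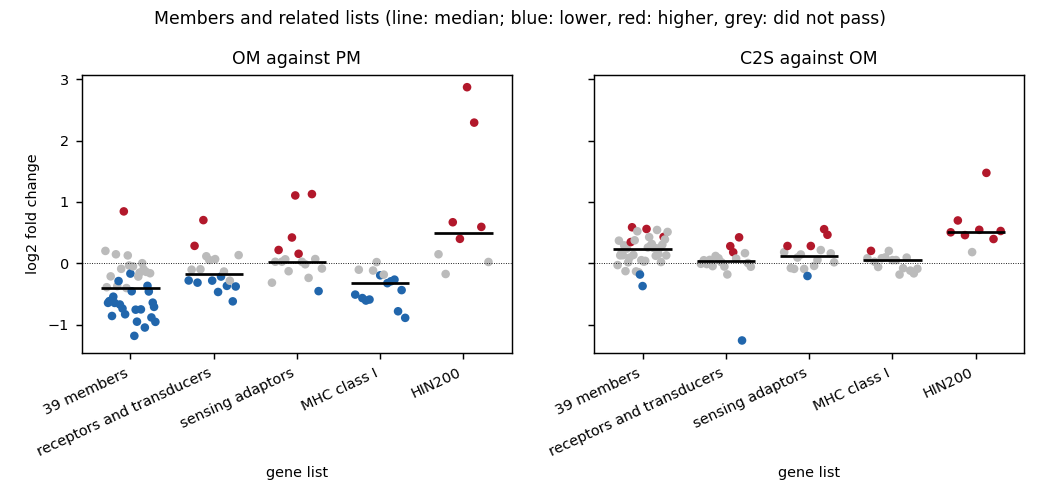
Log2 fold changes of the tested genes in each list (the 39 interferon-stimulated genes, receptors and transducers, sensing adaptors, MHC class I and HIN200), for OM against PM and C2S against OM, with a point per gene (blue for falls, red for rises, grey for genes that did not pass) and a line at each median. In OM against PM the interferon-stimulated genes (median -0.40) and MHC class I genes (-0.32) lie mostly below 0, and the HIN200 genes (0.50) mostly above.

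Other gene families known to respond to interferon, also chosen with earlier results of these data known, were set beside the 39. Of 15 MHC class I and peptide-loading genes, 11 fell and 0 rose in OM against PM (73.3% and 0%, against 27.7% and 27.1% of all tested genes), with a median log2 fold change of -0.32. Tapbp and Tap1, which load peptides, fell by 0.89 and 0.78, H2-K1 by 0.61 and B2m by 0.51. In C2S against OM 1 of the 15 rose (6.67%, against 10.6% of all tested genes) and 0 fell. The HIN200 genes, DNA-binding interferon-inducible proteins, rose. Of 8 tested, 5 rose in OM against PM, 7 in C2S against OM and 8 in C2S against PM (62.5%, 87.5% and 100%, against 27.1%, 10.6% and 27.6% of all tested genes), and none fell. Among them Ifi207 and Ifi208 reached 1 FPKM only in OM and C2S, so the filter kept them through the groups where they are high. The shares against PM include both genes. Of 15 listed HIN200 genes 13 had values, and those not tested stayed at or below 0.826 FPKM. Ifi207 rose by 2.87 ± 0.10 in OM against PM, from 0.805, 0.536 and 0.543 FPKM to 12, 11.4 and 9.36. Ifi208 rose by 2.29 there and by 1.47 in C2S against OM. Ifi204 rose by 0.67 in OM against PM, and Ifi202b by 0.50 in C2S against OM. The HIN200 genes are close copies of each other, so reads may be split between them.

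Markers of other cell types were measured in the same libraries, and their part in the results was not tested. The stromal markers Ly6a (542 to 988 FPKM), Pdgfra (110 to 146) and Itgb1 (269 to 398) were high in all 9 libraries, while Thy1, Nt5e and Eng stayed below 3 FPKM. The summed level of the 10 stromal markers was 1324 to 1446 FPKM in PM, 1276 to 1479 in OM and 1451 to 1551 in C2S. That sum hides opposite changes of single markers. Of the 9 tested, 7 fell and 1, Ly6a, rose in OM against PM (77.8% and 11.1%, against 27.7% and 27.1% of all tested genes). Col1a1 fell by 1.69, Nt5e by 1.07 and Prrx1 by 0.85, and Ly6a rose by 0.46. In C2S against PM Nt5e fell by 1.24. From below 3 FPKM, such falls leave its OM and C2S averages under the 1 FPKM filter. Nt5e therefore passed the filter largely through PM, where it is high, and the share of falls includes it. In C2S against OM 2 rose and 1 fell (22.2% and 11.1%, against 10.6% and 11.5%). The leukocyte and macrophage markers Ptprc, Adgre1 and Itgam were at or below 0.0144 FPKM in every library. Of 10 macrophage markers 3 passed the filter, and their summed level was 17.7 to 20.03 FPKM in PM, 26.8 to 32.4 in OM and 37.3 to 44.2 in C2S. Most of that sum was Cd14, at 10.4 to 41.2 FPKM, while Lyz2 was 3.42 to 4.80 in PM and 0.255 to 0.683 in OM and C2S. Of these 3, Cd14 rose and Cd68 and Lyz2 fell in OM against PM (33.3% and 66.7%, against 27.1% and 27.7% of all tested genes). Cd14 rose by 1.18 and Cd68 fell by 0.47. Lyz2 reached 1 FPKM only in PM, so the filter kept it through the group where it is high. The macrophage markers not tested reached at most 0.528 FPKM. No marker of plasmacytoid dendritic cells, which make much interferon, exceeded 0.591 FPKM, and no lymphocyte marker exceeded 0.068. Of 4 endothelial markers only Tek passed the filter, and their sum was 1.03 to 1.43 FPKM in PM, 1.99 to 2.32 in OM and 2.54 to 2.68 in C2S.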

How the data were processed

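The linear tables, deposited by the authors without a stated unit, were read as FPKM: multiplied by transcript length, 98.0% to 98.2% of low values gave whole reads (tolerance 0.1 reads). The submitters' processing notes name STAR, HTSeq, RSEM and mm10, without roles or versions. The circRNA values deposited by the authors are RPM, used only in the closing section. Entries reaching 1 FPKM in 3 or more libraries (13049 of 31405) were tested on log2(FPKM + 1) with limma 3.58.1 (R 4.3.3), with all 9 libraries in 1 fit, group as the only factor, a mean trend and 6 residual degrees of freedom, and Benjamini-Hochberg adjustment per comparison. A count test planned for counts did not apply to these values. Gene lengths and positions come from GENCODE M21. A spreadsheet had turned 26 symbols into dates, and these were replaced by identifier. The fit was also run on simulated reads in which genes varied independently, so that run does not cover genes that move together, as these did. Alternatives were another pseudocount, no filter, upper-quartile scaling, no trend, only the groups compared, a replicate block and each library left out.

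The members and lists were chosen with earlier results of these data known. Named genes were, per comparison, up to 12 falls and 12 rises of largest size, every call in C2S against OM, genes called in opposite directions, up to 6 pathway genes, and preset receptor and kinase genes. Members near the threshold or whose calls changed were named after their values were seen. A gene of the pathway list is not reported here.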

Additional observations from a re-analysis of the deposited data

How the results depend on the processing

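No called member changed direction under any alternative run. In C2S against OM the count of members that rose was 4, and it was 1 with no filter on low values, 9 with only the 2 groups compared and 1 to 4 with each replicate left out. The count that fell was 2, and it was 1 with no filter, with upper-quartile scaling and with no mean trend, and 1 with any replicate left out. All tested genes that changed there numbered 2877, and 1414 to 2318 with each replicate left out. The count that rose was 1 in OM against PM and in C2S against PM, and 1 to 2 with each replicate left out in both. The causes were not tested. Whether the replicate numbers pair the samples was not settled. Deviations from the group mean correlated at -0.092 to 0.395 between same-numbered libraries and at -0.469 to 0.187 between differently numbered ones. In OM against PM the same-numbered values were -0.024, 0.395 and 0.374. With a replicate block, 2 members rose in OM against PM, 11 in C2S against OM and 2 in C2S against PM, and Irf1 missed the threshold in OM against PM (adjusted p = 0.0699). Upper-quartile scaling moved the median of all genes by at most 0.0122 (log2, in size). Low genes such as Mx1, Ifitm1 and Oas2 (0.858 to 1.14 FPKM) limit what can be seen at this depth.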

Other observations

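Circular RNAs, made when a splice donor joins an upstream acceptor, were listed for 6 of the 39 genes. Of 6614 listed circRNAs 9 came from Stat2, Ddx58, Trim25, Dtx3l, Rtp4 and Usp18. The most often listed was a Stat2 circle on the plus strand of chromosome 10 from 128276486 to 128278817 (mm10). It had a value in 6 libraries, 1 of PM, 2 of OM and all 3 of C2S, between 112 and 241 RPM. A Trim25 circle on chromosome 11 from 89009119 to 89010973 was listed in the 3 OM libraries at 144, 105 and 102 RPM and in 1 C2S library at 112 RPM. The other 7 were each listed in 1 or 2 libraries. Values this low rest on few reads, an unlisted circle is not shown to be absent, and no test was run on them.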
